A study of Mus musculus with 36 samples.

Results

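The genes described here are 7 genes of the integrated stress response, Atf4, Trib3, Ddit3, Asns, Chac1, Sesn2 and Psat1. They were chosen by name, with earlier results of these data known. They are 7 of the 18760 named genes used from an expression table of 36 bulk RNA sequencing libraries. All mice were wild-type C57BL/6, matched in age and sex, and all bore tumors of MC38, a colon carcinoma line of that strain. One arm was given immune checkpoint blockade (ICB), a high dosage of antibodies to PD1 and CTLA4, which are inhibitory receptors of T cells, and the other arm received IgG as control. Each arm contributed 3 libraries of each of 6 tissues, namely the tumor, heart, skeletal muscle, liver, lung and kidney. Since control mice bore the tumor too, no organ of a tumor-free mouse was among the groups. The labels do not tell whether the 3 libraries of an arm and tissue are 3 mice, so a p-value here measures spread among libraries that may be technical.

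The integrated stress response is a relay by which cells slow protein synthesis when amino acids run short, unfolded proteins collect in the endoplasmic reticulum, heme is lacking or double-stranded RNA appears. A kinase specific to each of these signals phosphorylates the initiation factor eIF2 alpha. Most translation then falls, while that of the transcription factor ATF4 increases, so that much of its control is not visible in RNA. With C/EBP partners ATF4 binds composite promoter elements of genes for amino acid synthesis, amino acid uptake, transfer RNA charging and, under lasting stress, cell death.

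Atf4 encodes that transcription factor and lies at chromosome 15, bases 80255184 to 80257541, on the plus strand (GRCm38, the assembly of mm10, with GENCODE M21 annotation, as for all gene positions here). Ddit3 encodes the stress-induced C/EBP family factor CHOP (chromosome 10, 127290774 to 127296288, plus). Trib3 encodes a pseudokinase that binds ATF4 and CHOP and restrains their activity (chromosome 2, 152337422 to 152344032, minus). Asns encodes asparagine synthetase (chromosome 6, 7675169 to 7693254, minus). Psat1 encodes phosphoserine aminotransferase of serine synthesis (chromosome 19, 15904678 to 15947337, minus). Chac1 encodes an enzyme that breaks down glutathione (chromosome 2, 119351229 to 119354381, plus), and Sesn2 encodes sestrin 2, a leucine-binding inhibitor of mTORC1 signaling (chromosome 4, 132492032 to 132510501, minus). Ddit3 shares 68 exon bases with Mars, the methionyl-tRNA synthetase gene, and 13 with Gm4189, both on the opposite strand. Whether the counting used strand is not given in the sources used here, so a part of the Ddit3 value is uncertain. Psat1 has a processed pseudogene, Gm12611, that matches it at 91.0% of 1056 aligned bases, and reads could have been divided between the 2 copies.

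The promoters of Asns and Chac1 are shown because they hold the core of the C/EBP-ATF response element, the composite element through which ATF4 acts, written here as TGATGNAA and searched on both strands. The sequences are RefSeq's for GRCm38.p6 and run 5′ to 3′ along the gene's strand, with the match in capitals. The Asns window, chr6:7693225-7693459 on the minus strand, holds TGATGAAA, whose first base lies 23 bases upstream of the RefSeq start, and is shown to the end of the match. GENCODE places the Asns start 45 bases upstream of RefSeq's, so by that annotation the match lies within the transcribed gene. The Chac1 window, chr2:119350992-119351241 on the plus strand, holds TTGCATCA, the core read on the other strand, whose first base lies 193 bases upstream of the RefSeq start.
Asns: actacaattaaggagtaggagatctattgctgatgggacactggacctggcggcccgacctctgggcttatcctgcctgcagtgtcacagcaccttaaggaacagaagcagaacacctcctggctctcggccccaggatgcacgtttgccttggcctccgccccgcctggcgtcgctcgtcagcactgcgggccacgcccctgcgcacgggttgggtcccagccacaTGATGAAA
Chac1: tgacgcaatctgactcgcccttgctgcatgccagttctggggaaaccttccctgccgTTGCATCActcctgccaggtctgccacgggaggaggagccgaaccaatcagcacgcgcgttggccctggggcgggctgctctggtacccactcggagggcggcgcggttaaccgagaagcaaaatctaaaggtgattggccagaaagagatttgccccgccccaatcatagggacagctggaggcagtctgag
The core was present in 2 of the 8 RefSeq promoters of the 7 genes (250 bases upstream of each start), and in 1134 of 32851 promoters overall (3.45%). Of the 8, both of Psat1 lie inside the GENCODE gene, with RefSeq starts 22278 and 22715 bases after the GENCODE start. The endoplasmic reticulum stress element, CCAAT followed after 9 bases by CCACG, was searched on both strands as well. This exact form was in 0 of the 8, so no match of the 2 motifs overlapped there, and in 37 of all promoters (0.113%). On the other strand the Ddit3 promoter holds CCAAT followed after 9 bases by GCACG, which the exact search does not count. A match describes letters in a window, not a bound site.

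Values are FPKM, fragments per kilobase of gene scaled to library depth, so that levels may be compared between genes. The depth was also multiplied by a factor for each library, which the values imply. It was 1.47 to 1.55 in the tumor, 0.724 to 0.883 in muscle and 0.532 to 0.645 in liver. With a higher factor the same share of reads gives a lower FPKM, which bears on comparisons between tissues. The libraries held 19005189 to 25512980 reads over the genes of the table. Markers of the 5 organs were high in the organs so labelled. The summed level of 8 skeletal muscle genes was 66831 to 99914 FPKM in muscle, that of 7 heart muscle genes 13867 to 20317 FPKM in heart, that of 7 hepatocyte genes 65214 to 83557 FPKM in liver, that of 6 lung epithelial genes 20094 to 54964 FPKM in lung, and that of 8 kidney tubule genes 11879 to 18656 FPKM in kidney. In the tumor the epithelial keratin genes Krt8, Krt18 and Krt19 were at or near 0 in every library (0 to 0.823 FPKM), so that these defining markers of an epithelial tumor were absent. The cell cycle genes Mki67, Top2a, Cdk1 and Ccnb1 were at 12.1 to 64.7 FPKM in the tumor, against at most 2.85 FPKM in the organs. One tumor library stood apart in muscle transcripts. In ICB tumor replicate 2 the 8 skeletal muscle genes summed to 376 FPKM and the actin gene Acta1 reached 180 FPKM, against at most 8.30 FPKM of Acta1 in the other 5 tumor libraries. Over all genes, IgG tumor replicate 3 differed most from the libraries of its arm. Its chi-square of read numbers per gene was 100 and 84.9, against 20.1 to 34.45 for the other pairs of tumor libraries within an arm.

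All 7 genes had a higher mean in the ICB tumors than in the IgG tumors, and for Atf4, Trib3, Ddit3, Chac1 and Sesn2 every ICB library lay above every IgG library. Among all 11398 genes tested in the tumor, 5.65% were separated in that direction and 7.49% in the other. The median log2 difference, ICB minus IgG on the log2(FPKM + 1) scale, was 0.33 over the 7 genes and -0.01 over all genes tested, of which 48.2% were higher. None of the 7 passed the threshold of 0.05 on the adjusted p of limma, a moderated test across all genes, and neither did any other tumor gene (0%). At an unadjusted p under 0.05 stood 4 of the 7 (Atf4, Trib3, Ddit3 and Chac1), with 3.14% of all genes higher and 3.73% lower. Limma-voom on recovered reads also called 0 of the 7. Separation of 3 libraries from 3 carries at best p = 0.1 in a two-sided exact permutation test. Without ICB replicate 2, the library with muscle transcripts, 5 of the 7 genes were separated, beside 7.68% of all genes. Without IgG replicate 3 it was also 5 of the 7, beside 17.6% of all genes. In bulk tissue fewer cells of a type and less RNA per cell cannot be told apart.

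Atf4, the factor at the center of the response, measured 106, 115 and 101 FPKM in the ICB tumors, against 83.2, 77.0 and 90.05 FPKM in the IgG tumors. All 3 ICB tumors lay above the highest IgG tumor, with a log2 difference of 0.36 ± 0.11 (SE, n = 3 per group, as for every difference within a tissue; adjusted p = 0.692). Ddit3, the CHOP gene, measured 13.0, 11.2 and 15.2 FPKM in the ICB tumors and 9.999, 10.4 and 10.1 FPKM in the IgG tumors. The IgG values were nearly equal and the ICB values all lay above them, by 0.33 ± 0.12 on the log2 scale (adjusted p = 0.697). The feedback inhibitor Trib3 had the largest log2 difference of the 7. It measured 36.5, 41.0 and 39.2 FPKM in the ICB tumors and 28.4, 27.3 and 16.6 FPKM in the IgG tumors, with a log2 difference of 0.70 ± 0.20 (adjusted p = 0.692). IgG replicate 3 was the lowest library for Trib3, and the other 2 IgG tumors also lay under every ICB tumor. Without IgG replicate 3 the log2 difference of Trib3 was 0.47.

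Of the 2 synthesis enzymes neither was separated between the treatments. Asns measured 34.5, 49.0 and 36.8 FPKM in the ICB tumors, against 37.8, 33.9 and 24.6 FPKM in the IgG tumors (log2 difference 0.32 ± 0.20, adjusted p = 0.786). The highest IgG tumor stood above 2 ICB tumors. Psat1 measured 35.02, 45.2 and 29.2 FPKM in the ICB tumors, against 32.5, 33.0 and 26.2 FPKM in the IgG tumors (0.23 ± 0.18, adjusted p = 0.826). The highest value of both enzymes came from ICB replicate 2, the library with muscle transcripts. Without that library the log2 difference was 0.17 for Asns and 0.07 for Psat1, while those of the other 5 genes stayed between 0.27 and 0.67. Without IgG replicate 3 it was 0.14 for Asns and 0.13 for Psat1, and without ICB replicate 3 it was 0.38 for Psat1.

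The effectors Chac1 and Sesn2 were separated. Chac1 measured 5.72, 5.58 and 6.31 FPKM in the ICB tumors and 3.97, 5.11 and 3.64 FPKM in the IgG tumors (0.40 ± 0.13, adjusted p = 0.697). Sesn2 measured 15.2, 14.0 and 13.8 FPKM in the ICB tumors and 13.0, 9.66 and 13.1 FPKM in the IgG tumors (0.25 ± 0.13, adjusted p = 0.748). For Sesn2 the margin was small, with 2 of the IgG tumors just under the lowest ICB tumor, and without IgG replicate 2, the lowest, the log2 difference was 0.12. Across the 7 genes, ICB replicate 2 held the highest tumor value of 4 and IgG replicate 3 the lowest of 4. The part of the muscle transcripts in these differences was not tested. Fat cell genes also varied, with 8 of them summing to 1.28 to 52.5 FPKM in the ICB tumors and 0.360 to 1.61 FPKM in the IgG tumors. The sums of 10 T and NK cell genes were 15.5 to 36.6 FPKM in ICB and 34.1 to 67.6 FPKM in IgG, and those of 7 epithelial and cell cycle genes, nearly all of it from the 4 cell cycle genes, 127 to 142 FPKM in ICB and 107 to 130 FPKM in IgG. Both sums overlapped between the arms. Of the 10 T and NK cell genes 3 were separated and lower with ICB and 1 separated and higher. Of the 7 epithelial and cell cycle genes 1 was separated and higher. Over all tumor genes tested 5.65% were separated and higher and 7.49% lower. The part of these cell types in the values of the stress genes was not tested. Skeletal muscle itself had lower means of Asns, Psat1, Trib3, Ddit3 and Sesn2 than the tumor, and higher means of Atf4 and Chac1, as the tissue comparison below gives.

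**Figure D1:**
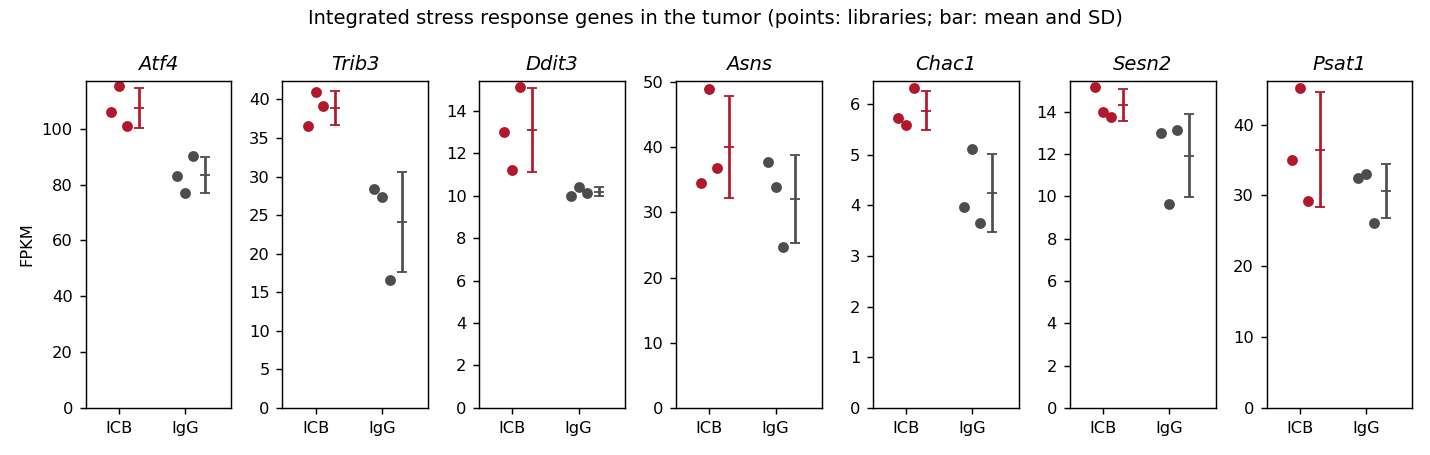
FPKM of the 7 genes in the tumor, with 1 point for each library, ICB (red) left of IgG (grey), and the mean with its SD beside the points. The ICB points lie above all IgG points for Atf4, Trib3, Ddit3, Chac1 and Sesn2, and overlap with them for Asns and Psat1.

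The other genes of the pathway were described by lists of their roles. None of their genes passed in the tumor. Upstream, of the 4 eIF2 alpha kinases and eIF2 alpha itself 2 of 5 were higher (median log2 difference -0.004). Eif2ak2, which encodes the kinase PKR that responds to double-stranded RNA, stood at 19.4 ± 2.05 FPKM in the ICB tumors and 14.2 ± 2.51 FPKM in the IgG tumors (mean ± SD; 0.43 ± 0.15), without overlap. Eif2ak3, which encodes the endoplasmic reticulum kinase PERK, averaged 4.32 FPKM in ICB and 5.25 FPKM in IgG (-0.24 ± 0.13) and overlapped. All 3 subunits of the phosphatase that reverses the signal had higher means (median 0.08), with the constitutive subunit Ppp1r15b at 27.8 ± 1.90 FPKM in ICB and 23.3 ± 1.30 FPKM in IgG (0.24 ± 0.10), separated, and the stress-induced Ppp1r15a at 9.18 ± 1.22 FPKM in ICB and 8.65 ± 1.08 FPKM in IgG (0.08 ± 0.13), overlapping. Of the partner and downstream factors 6 of 10 were higher (median 0.06). Cebpg, a C/EBP partner of ATF4, was the separated one at 11.7 ± 1.66 FPKM in ICB and 8.38 ± 1.09 FPKM in IgG (0.44 ± 0.14), and Nfe2l1 overlapped (0.20 ± 0.12).

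Downstream, the lists of amino acid supply had the larger shares of genes with a higher mean in ICB. All 13 genes of the cytosolic aminoacyl-tRNA synthetase list, enzymes that load amino acids onto transfer RNA and the exportin gene Xpot, had a higher mean in the ICB tumors (median 0.19), and 7 of 13 were separated, beside 5.65% of all genes. Yars, for tyrosine, stood at 12.5 ± 1.45 FPKM in ICB and 9.89 ± 0.54 FPKM in IgG (0.30 ± 0.11), and Cars, for cysteine, at 9.82 ± 0.85 FPKM in ICB and 8.09 ± 0.48 FPKM in IgG (0.25 ± 0.10). On the TPM scale, which gives each library the same sum, 11 of the 13 were higher. All 8 tested amino acid transporters had a higher mean (7 on the TPM scale, median 0.17), and 3 were separated. They included Slc1a4, a carrier of neutral amino acids (13.4 ± 0.66 FPKM in ICB, 10.4 ± 1.58 FPKM in IgG, 0.34 ± 0.12), and Slc7a1, the carrier of arginine and lysine (24.2 ± 4.54 FPKM in ICB, 18.5 ± 0.80 FPKM in IgG, 0.35 ± 0.14).

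Of the serine, glycine, one-carbon and proline synthesis genes 9 of 11 tested were higher (median 0.18) and 3 were separated. Over all tumor genes 5.65% were separated and higher. Aldh1l2, a mitochondrial folate enzyme, stood at 9.86 ± 2.30 FPKM in ICB and 6.46 ± 0.84 FPKM in IgG (0.53 ± 0.17). Mthfd2, the mitochondrial folate enzyme of proliferating cells, stood at 33.2 ± 6.13 FPKM in ICB and 24.9 ± 4.13 FPKM in IgG (0.40 ± 0.17). Of 10 tested stress effectors and secreted factors 5 were higher and 0 were separated (median 0.02). Vldlr, a lipoprotein receptor, overlapped between the groups (0.58 ± 0.22), as did Cdkn1a, which encodes the cell cycle inhibitor p21 (0.37 ± 0.21).

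The neighboring ATF6 and XBP1 arm, which induces endoplasmic reticulum chaperones, had 12 of 15 genes with a higher mean in the ICB tumors (median 0.10) and 4 separated. Over all tumor genes 5.65% were separated and higher and 7.49% separated and lower. Hspa5, the chaperone BiP, stood at 206 ± 1.75 FPKM in ICB and 171 ± 6.95 FPKM in IgG (0.26 ± 0.09), and Hyou1, a large chaperone of the same compartment, at 33.5 ± 2.34 FPKM in ICB and 26.0 ± 5.43 FPKM in IgG (0.38 ± 0.16). The paralogs of the 7 genes went both ways, with 5 of 8 higher (median 0.06). Sesn1, a sestrin gene induced by p53, stood at 3.79 ± 0.98 FPKM in ICB and 6.50 ± 1.03 FPKM in IgG (-0.66 ± 0.18), and Chac2 at 6.39 ± 0.13 FPKM in ICB and 7.78 ± 0.41 FPKM in IgG (-0.25 ± 0.09). Both lay lower in every ICB tumor, where Sesn2 and Chac1 lay higher. Of the mitochondrial stress relay 3 of 6 genes were higher (median 0.09). Dele1, the relay protein from mitochondria to eIF2 alpha kinase HRI, was separated and lower (-0.13 ± 0.09), and Hspe1, a mitochondrial chaperonin, overlapped (0.35 ± 0.21).

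**Figure D2:**
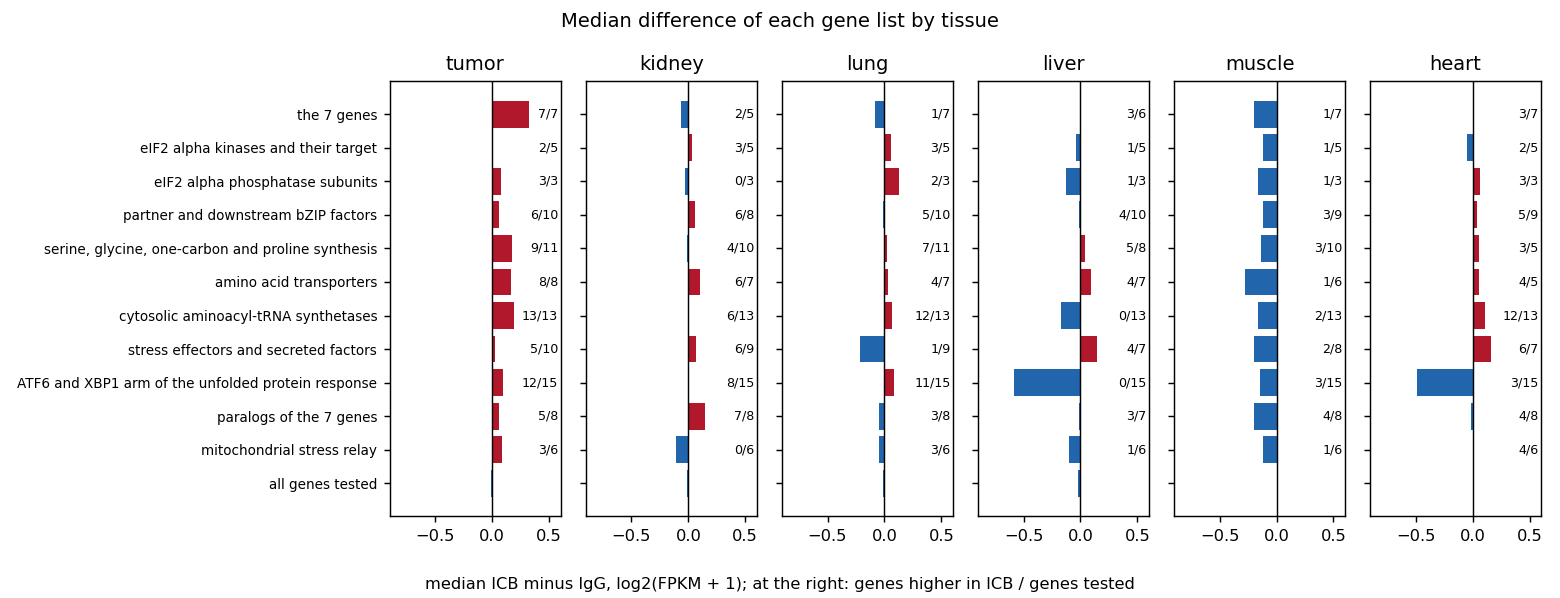
Median log2 difference, ICB minus IgG on the log2(FPKM + 1) scale, over the tested genes of each list in each tissue, with the number higher in ICB over the number tested at the right (lists share genes in places, and all genes tested are at the bottom). In the tumor the 7 genes have the largest median, 0.33, and in liver and heart the ATF6 and XBP1 arm the lowest, -0.58 and -0.49.

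Across tissues, 4 of the 7 genes, Trib3, Ddit3, Asns and Psat1, had their highest mean in the tumor. Set against the average of the 5 organs in a fit of all 36 libraries, 6 of the 7 were higher in the tumor at an adjusted p under 0.05, where 86.1% of the 16123 genes tested were called (38.6% higher and 47.4% lower). The differences were 3.41 ± 0.13 for Psat1, 3.30 ± 0.22 for Asns, 3.27 ± 0.17 for Trib3, 1.34 ± 0.17 for Sesn2, 0.76 ± 0.10 for Ddit3 and 0.74 ± 0.13 for Atf4 on the log2(FPKM + 1) scale. Chac1 was not called (0.07 ± 0.26, adjusted p = 0.804). Muscle, the organ with most Chac1, is part of that average, and without muscle the difference was 1.013 (SE 0.27, adjusted p = 0.00112; 0.000116 to 0.994 over all settings run). On the TPM scale the median of all genes moved to 0.82, against -0.14 on the FPKM scale, and 10068 genes were called higher and 4577 lower, against 6227 and 7647. All 7 genes were called higher on that scale and all lay above that median, with Chac1 at 1.26 and Atf4 at 1.86. Of the 35 comparisons of the tumor with a single organ, 30 were higher in the tumor, 3 were lower (Atf4 and Chac1 against muscle, Sesn2 against kidney) and 2 did not pass (Atf4 and Chac1 against liver). The share of all genes called in either direction was 76.7% against kidney, 74.9% against lung, 75.4% against liver, 75.1% against muscle and 74.7% against heart. These comparisons and the tissue orders below are on the FPKM scale, where whole tumor libraries summed to 203235 to 217337 FPKM. The sums were 493655 to 579516 FPKM in muscle, 351507 to 408466 FPKM in kidney and 665363 to 925573 FPKM in liver. They were 451530 to 593211 FPKM in heart and 210038 to 287165 FPKM in lung, the organ nearest to the tumor. Calls against single organs and tissue orders may thus differ on the TPM scale, for which they are not given here.

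**Figure D3:**
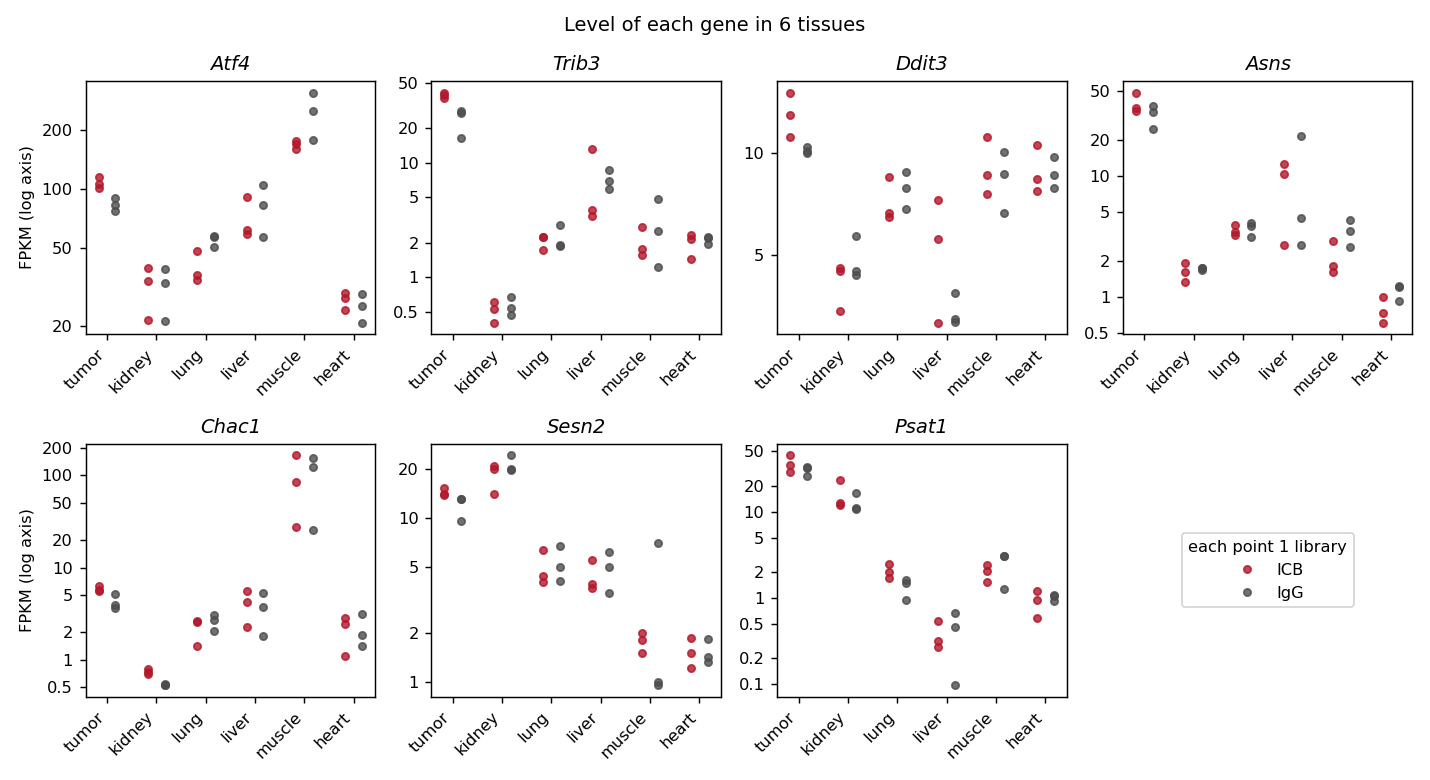
FPKM of each gene on a log axis in 6 tissues, with 1 point for each library, ICB (red) left of IgG (grey) within a tissue and the tumor at the left. Trib3, Asns and Psat1 stand highest in the tumor, Atf4 and Chac1 in muscle and Sesn2 in kidney, and the points of Asns and Psat1 in liver and of Chac1 and Sesn2 in muscle spread most.

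Atf4 had a level among the highest 10% of genes in every tissue. It averaged 95.4 ± 14.5 FPKM in the tumor (SD, n = 6, both treatments, as for all tissue levels), second to muscle with 209 ± 60.6 FPKM. It followed with 76.4 ± 19.7 FPKM in liver, 47.3 ± 9.99 FPKM in lung, 31.4 ± 8.20 FPKM in kidney and 26.1 ± 3.35 FPKM in heart. Tumor and liver (adjusted p = 0.0596) and kidney and heart (adjusted p = 0.242) did not differ beyond their spread, while muscle stood above the tumor (1.09 ± 0.16, adjusted p = 6.78e-07).

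Ddit3 varied least, with 11.7 ± 2.04 FPKM in the tumor, 8.82 ± 1.11 FPKM in heart, 8.79 ± 1.64 FPKM in muscle, 7.53 ± 1.02 FPKM in lung, 4.48 ± 0.72 FPKM in kidney and 4.37 ± 1.69 FPKM in liver. The tumor lay above heart (0.36 ± 0.13, adjusted p = 0.0152) although single libraries overlapped. Heart and muscle, muscle and lung, and kidney and liver did not differ beyond their spread.

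Trib3 stood at 31.5 ± 9.21 FPKM in the tumor, 4.49 times its mean of 7.02 ± 3.64 FPKM in liver, the next tissue (adjusted p = 5.54e-10). Muscle, lung and heart lay together at 2.44 ± 1.29, 2.14 ± 0.40 and 2.06 ± 0.33 FPKM. Kidney was last with 0.54 ± 0.10 FPKM, and the tumor mean was 58.6 times the kidney mean.

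Asns stood at 36.1 ± 7.84 FPKM in the tumor, 3.98 times the 9.06 ± 7.37 FPKM of liver (adjusted p = 6.47e-08). Lung had 3.61 ± 0.40 FPKM, muscle 2.79 ± 1.04 FPKM, kidney 1.66 ± 0.20 FPKM and heart 0.95 ± 0.25 FPKM, and these 4 did not pass between neighbors in that order. Psat1 stood at 33.5 ± 6.52 FPKM in the tumor and at 14.4 ± 4.83 FPKM in kidney (1.20 ± 0.16, adjusted p = 1.33e-07), and no library of the 2 tissues overlapped. All other tissues lay far under these, with 2.24 ± 0.77 FPKM in muscle, 1.71 ± 0.52 FPKM in lung, 0.96 ± 0.21 FPKM in heart and 0.39 ± 0.21 FPKM in liver, where the tumor mean was 85.6 times higher. Liver, second for Asns, was thus last for Psat1.

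Chac1 stood at 5.06 ± 1.05 FPKM in the tumor, against 97.6 ± 61.7 FPKM in muscle, 3.84 ± 1.55 FPKM in liver, 2.40 ± 0.57 FPKM in lung, 2.13 ± 0.81 FPKM in heart and 0.64 ± 0.12 FPKM in kidney. Muscle lay above the tumor by 3.70 ± 0.34 (adjusted p = 5.76e-11), and its lowest library, at 25.4 FPKM, was above every library of the other tissues. Tumor, liver, lung and heart did not pass between neighbors in that order. Sesn2 stood at 13.1 ± 1.86 FPKM in the tumor, against 19.7 ± 3.28 FPKM in kidney, where it was highest (kidney minus tumor 0.55 ± 0.22, adjusted p = 0.0247). Lung had 5.15 ± 1.16 FPKM, liver 4.66 ± 1.09 FPKM, muscle 2.38 ± 2.30 FPKM and heart 1.53 ± 0.26 FPKM. Over the 7 genes, 19 of 35 pairs of neighbors in these orders differed at an adjusted p under 0.05 and 16 did not pass, where 52.4% (muscle and heart) to 76.8% (lung and liver) of all genes differed between 2 tissues.

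Of the other lists, all but 1 gene of the aminoacyl-tRNA synthetase list were called higher in the tumor than in the organs (12 of 13 called, median 0.90, against a median of -0.14 over all genes). They were led by Gars, for glycine (1.61 ± 0.05), Lars, for leucine (1.80 ± 0.07), Aars, for alanine (1.58 ± 0.07), and Iars, for isoleucine (1.19 ± 0.09). Over all genes 38.6% were called higher and 47.4% lower. Of the transporters 8 of 9 were called higher and 1 lower. Slc7a5, the carrier of leucine and other large amino acids, averaged 111 FPKM in the tumor (difference 5.03 ± 0.09). Slc7a1 was higher by 3.08 ± 0.10, Slc7a11, which imports cystine for glutathione, by 2.12 ± 0.10, and Slc1a4 by 1.82 ± 0.09. Slc7a11 and, among the synthesis genes, Aldh1l2 met the level filter only in the tumor, so that their calls were fixed by the filter. Among the synthesis genes 9 of 13 were called higher and 4 lower. Phgdh, the first enzyme of serine synthesis and the step before Psat1, was higher by 4.89 ± 0.15, Mthfd2 by 3.79 ± 0.09, Mthfd1l, another mitochondrial folate enzyme, by 3.48 ± 0.08, and Aldh1l2 by 2.79 ± 0.06.

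Upstream, 4 of the 5 genes of the kinases and their target were called higher, Eif2ak2 by 1.79 ± 0.12, the eIF2 alpha gene Eif2s1 by 1.31 ± 0.06, Eif2ak4 of the amino acid sensor GCN2 by 0.48 ± 0.16 and Eif2ak3 by 0.43 ± 0.10. So were 2 of the 3 phosphatase subunits, Ppp1cc (0.57 ± 0.05) and Ppp1r15b (0.66 ± 0.08). Beside each count here, 38.6% of all genes were called higher and 47.4% lower. The partner factors went both ways, with 3 called higher and 4 lower of 10, among them Jdp2 (1.00 ± 0.14), Atf2 (0.21 ± 0.06), Nfe2l1 (-0.47 ± 0.08) and Cebpd (-2.18 ± 0.38). Among the effectors 7 of 11 were called higher, with the death receptor gene Tnfrsf10b (2.55 ± 0.09) and the secreted factors Gdf15 (1.89 ± 0.13) and Stc2 (1.12 ± 0.09), and 3 lower, with Herpud1 of endoplasmic reticulum protein disposal (-1.87 ± 0.16). The ATF6 and XBP1 arm had 9 higher and 5 lower of 15, with the disulfide isomerase Pdia4 (1.47 ± 0.10), Edem1 of glycoprotein disposal (0.93 ± 0.09) and the co-chaperones Dnajb9 (-2.10 ± 0.14) and Dnajc3 (-0.86 ± 0.09). Of the 8 paralogs 0 were called higher and 5 lower, with Cebpa (-2.66 ± 0.17), Trib2 (-1.29 ± 0.12), Sesn1 (-1.06 ± 0.21) and Sesn3 (-0.62 ± 0.11). The mitochondrial relay had 3 called each way, with Dele1 (-1.14 ± 0.06), the protease genes Oma1 (-0.83 ± 0.08) and Lonp1 (0.62 ± 0.10), and the chaperonin Hspd1 (1.27 ± 0.09).

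Within the organs none of the 7 genes passed for ICB against IgG, where over all genes only kidney had calls (0.0168%, both lower). Of 32 tests in the organs the libraries were separated in 3. Over all genes of an organ, 3.26% (liver) to 6% (muscle) were separated and higher and 3.58% (liver) to 5.62% (muscle) lower. Atf4 was lower in every ICB lung and every ICB muscle, and Psat1 was higher in every ICB lung. At an unadjusted p under 0.05 stood 2 in lung (Atf4 and Psat1, where 2.55% of all genes were higher and 1.8% lower) and 1 in muscle (Asns, where 3.09% were higher and 2.23% lower). In kidney (1.68% and 2.03%), liver (2.45% and 0.915%) and heart (2.05% and 2.49%) it was 0 of the 7, and limma-voom called 0 of the 7 in every organ. The 3 left out for low values were Trib3 and Chac1 in kidney and Psat1 in liver.

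In lung Atf4 measured 36.6, 48.0 and 34.1 FPKM with ICB, against 57.8, 56.8 and 50.4 FPKM with IgG (-0.48 ± 0.18, adjusted p = 0.988). All 3 ICB lungs lay under the lowest IgG lung, as 4.14% of all lung genes did. Psat1 measured 1.69, 2.50 and 1.99 FPKM in the ICB lungs and 1.51, 0.943 and 1.61 FPKM in the IgG lungs (0.38 ± 0.16, adjusted p = 0.988), where 4.5% of genes were separated and higher. On the TPM scale the median of all lung genes was 0.20, against -0.01 on the FPKM scale, with Atf4 at -0.27 and Psat1 at 0.73. In the same lungs 6 genes of lung epithelium summed to 20094 to 31164 FPKM with ICB and 33938 to 54964 FPKM with IgG, without overlap. The sum of 7 heart muscle genes was 81.0 to 144.1 FPKM with ICB and 144.3 to 153.8 FPKM with IgG, and 5 of 11 macrophage and monocyte genes were separated and higher while their sum overlapped. The part of these in the lung values was not tested. The other 5 genes overlapped, with log2 differences of -0.17 to -0.05, and Trib3, Ddit3, Asns and Sesn2 stood above 0 on the TPM scale.

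In muscle Atf4 measured 171, 177 and 161 FPKM with ICB, against 179, 313 and 253 FPKM with IgG (-0.51 ± 0.23, adjusted p = 0.876). The 3 ICB values were close together and just under the lowest IgG value, and 5.62% of muscle genes were separated and lower (6% higher). Asns measured 1.81, 2.90 and 1.603 FPKM in the ICB muscles, against 3.52, 2.59 and 4.34 FPKM in the IgG muscles (-0.53 ± 0.22, adjusted p = 0.876), and 1 ICB library lay above 1 IgG library. Of the 7 genes 6 had a lower mean log2 level with ICB (median -0.19, against 0.003 over all genes), the exception being Ddit3 (0.10 ± 0.20). Red cell genes were lower in the ICB muscles as well (5 genes, 284 to 877 FPKM with ICB and 978 to 1517 FPKM with IgG), and 8 fat cell genes summed to 514 to 1016 FPKM with ICB and 894 to 2015 FPKM with IgG. Of 6 fibroblast genes 5 were separated and higher with ICB, while their sum overlapped. Their part in the muscle values was not tested.

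For Chac1 and Sesn2 the muscles of 1 treatment differed by more than the treatments did. Chac1 measured 166, 85.9 and 27.7 FPKM with ICB and 156, 125 and 25.4 FPKM with IgG, so that both groups held a library far under the other 2 (-0.11 ± 0.80). Sesn2 measured 1.51, 1.99 and 1.80 FPKM with ICB and 0.959, 7.01 and 1.009 FPKM with IgG (-0.19 ± 0.51). IgG replicate 2, high in Sesn2, was also the highest muscle for Atf4 and for Trib3 (4.79 FPKM), and the lowest for Psat1 (1.28 FPKM) and Ddit3 (6.65 FPKM). Without that library the log2 difference of Atf4 in muscle was -0.32 and that of Sesn2 0.48.

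**Figure D4:**
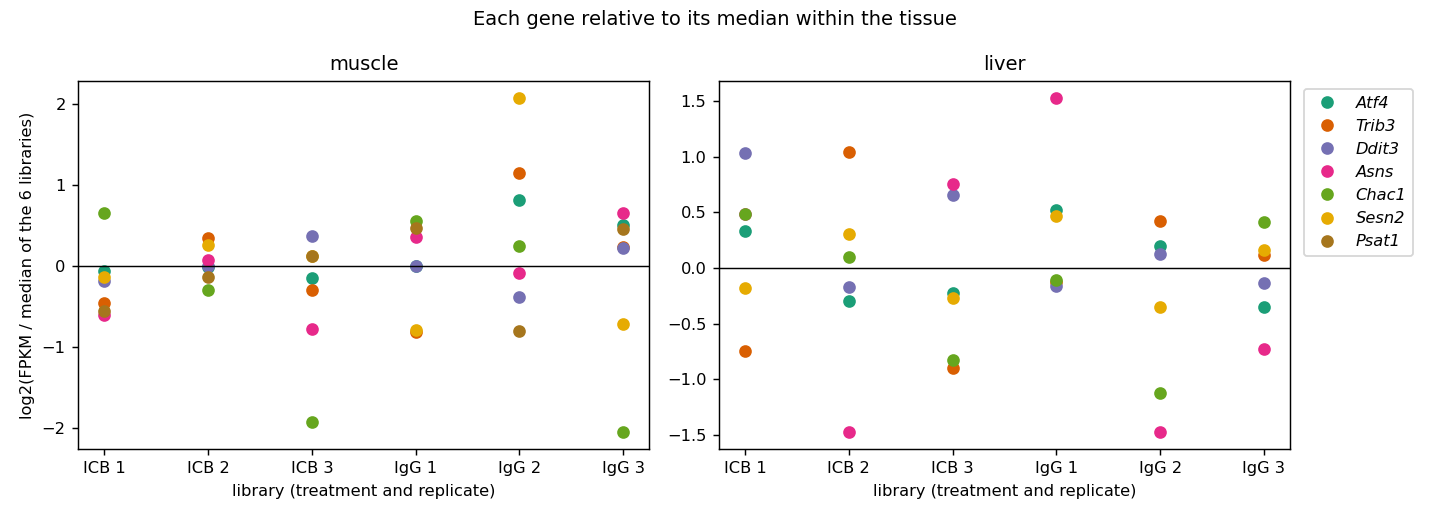
Level of each gene in each muscle (left) and liver (right) library relative to its median over the 6 libraries, on a log2 scale, ICB libraries left of IgG libraries (Psat1 in liver, below the level filter, is not drawn). Chac1 is lowest in ICB 3 and IgG 3 of muscle, Sesn2 is highest in IgG 2 of muscle, and Asns spans the widest range in liver.

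In liver Asns spread widest of the 7, with 10.4, 2.68 and 12.6 FPKM with ICB and 21.5, 2.68 and 4.49 FPKM with IgG (0.11 ± 0.72). Both groups held a library at 2.68 FPKM. Trib3 reached 13.3 FPKM in ICB replicate 2, against 3.84 and 3.45 FPKM in the other ICB livers and 5.90, 8.63 and 6.98 FPKM in the IgG livers (-0.26 ± 0.43). That library was the lowest for Asns and for Ddit3. Ddit3 measured 7.25, 3.14 and 5.57 FPKM with ICB, against 3.16, 3.85 and 3.22 FPKM with IgG (0.47 ± 0.26, adjusted p = 0.999). Atf4 (-0.19 ± 0.27), Chac1 (0.14 ± 0.35) and Sesn2 (-0.11 ± 0.22) overlapped, and 0 of the 6 tested genes was separated, beside 3.26% of liver genes higher and 3.58% lower.

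In kidney Psat1 reached 23.2 FPKM in ICB replicate 1, against 11.8 and 12.5 FPKM in the other ICB kidneys and 16.6, 11.1 and 10.8 FPKM in the IgG kidneys (0.25 ± 0.26). Sesn2, at its highest in this organ, measured 13.9, 19.9 and 20.7 FPKM with ICB and 24.1, 19.7 and 20.03 FPKM with IgG (-0.23 ± 0.16). ICB replicate 1 was thus highest for Psat1 and lowest for Sesn2. Chac1 stood at 0.799, 0.730 and 0.708 FPKM with ICB and at 0.543, 0.529 and 0.528 FPKM with IgG, apart but below the level filter and so untested. Without overlap in kidney were also the sums of skeletal muscle, macrophage and endothelial genes, all higher with ICB, and of red cell genes, lower with ICB. The 5 tested kidney genes all overlapped, beside 3.45% of kidney genes separated and higher and 5.22% lower.

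In heart all 7 genes overlapped, beside 4.79% of heart genes separated and higher and 4.97% lower. The heart difference farthest from 0 was that of Asns, with 0.614, 0.730 and 1.00 FPKM with ICB and 1.22, 1.23 and 0.923 FPKM with IgG (-0.25 ± 0.12, adjusted p = 0.997). Atf4 stood at 27.1 ± 2.70 FPKM with ICB and 25.1 ± 4.21 FPKM with IgG (0.11 ± 0.13).

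**Figure D5:**
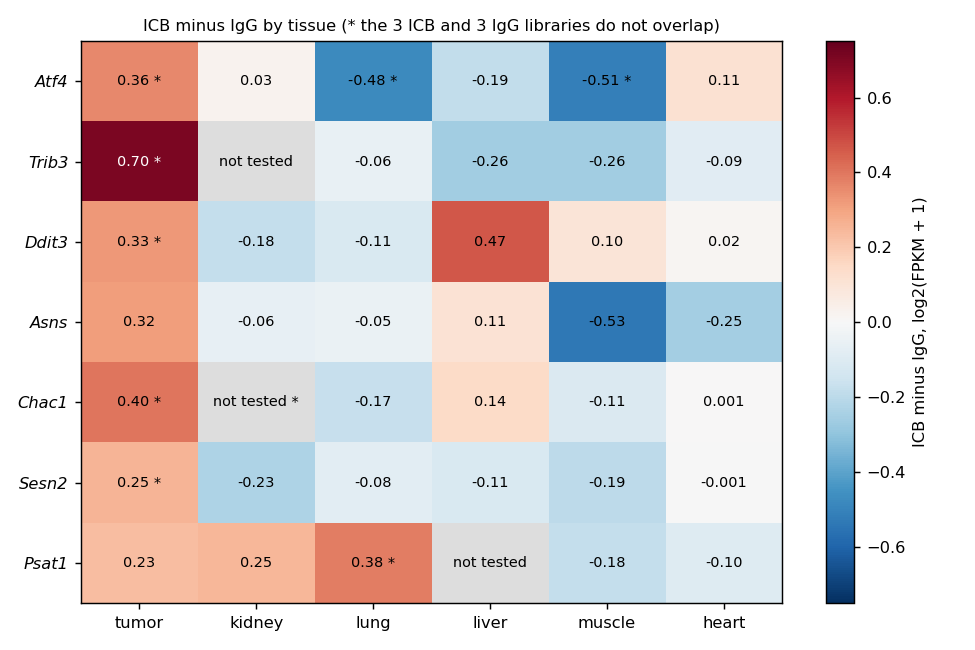
Log2 difference, ICB minus IgG on the log2(FPKM + 1) scale, of the 7 genes (rows) in 6 tissues (columns, tumor at the left), in red where ICB is higher and blue where it is lower, with an asterisk where the 3 ICB and 3 IgG libraries do not overlap. All 7 tumor values are above 0, and the lowest values are those of Asns and Atf4 in muscle, -0.53 and -0.51.

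The ATF6 and XBP1 arm, most of whose genes had a higher mean in the ICB tumors, had lower means in liver and heart. In liver all 15 of its genes had a lower mean with ICB (median -0.58) and 8 were separated, beside 3.58% of all liver genes. Hspa5 stood at 249 ± 34.2 FPKM in the ICB livers and 432 ± 149 FPKM in the IgG livers (-0.74 ± 0.28), and Creld2, a secreted partner of these chaperones, at 36.4 ± 1.07 FPKM in ICB and 88.9 ± 37.4 FPKM in IgG (-1.19 ± 0.28). In heart 12 of 15 were lower (median -0.49) and 8 separated, beside 4.97% of all heart genes. Hspa5 stood at 155 ± 18.1 FPKM in the ICB hearts and 239 ± 23.5 FPKM in the IgG hearts (-0.63 ± 0.12). Red cell genes were lower in the ICB hearts too (414 to 549 FPKM with ICB, 749 to 3884 FPKM with IgG), as was the sum of 6 fibroblast genes (229 to 246 FPKM with ICB, 247 to 276 FPKM with IgG), and endothelial genes higher in the ICB livers (74.3 to 98.0 FPKM with ICB, 56.1 to 73.7 FPKM with IgG). Their part in these lists was not tested. The synthetases had 0 of 13 higher in liver (median -0.17), 12 of 13 higher in heart (median 0.11) and in lung (0.07), 6 of 13 higher in kidney and 2 of 13 higher in muscle (-0.16). No gene of these lists passed within an organ.

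Averaged over the 5 organs, 0 of the 7 genes were called for ICB against IgG, where 0.434% of genes were called (0.385% higher and 0.0496% lower). Atf4 stood at -0.21 ± 0.10 (adjusted p = 0.564), and the other 6 between -0.16 and 0.07, with 0 of the 7 at an unadjusted p under 0.05 (5.61% of all genes higher, 3.67% lower). Of the other pathway lists 1 gene was called, Creld2, which fell by 0.46 (SE 0.10, adjusted p = 0.0271). That call was lost without liver (-0.28, adjusted p = 0.491), without lung, without muscle, on the TPM scale and with the replicate block, and without any of 7 single libraries (ICB lung 1, liver 3, muscle 2, muscle 3 and heart 2, and IgG kidney 2 and heart 3). Over all settings its adjusted p was 0.0129 to 0.491. On the same average 5 of 11 macrophage and monocyte genes were called higher (Adgre1, Cd68, Csf1r, Mpeg1 and Lyz2) and the hemoglobin gene Hba-a2 lower, and their part in these values was not tested. Of 47 settings Cd68 was called in 14, Lyz2 in 16, Adgre1 in 21, Csf1r in 37, Hba-a2 in 42 and Mpeg1 in 43, and their highest adjusted p ranged from 0.115 for Mpeg1 to 0.431 for Lyz2. Over all genes 70 were called on this average, against 5 without lung and 1 without liver. On the TPM scale 248 were higher and 4 lower, against 62 and 8.

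The ICB effect in the tumor minus the mean effect in the 5 organs was above 0 for all 7 genes, and 0 of 7 were called, where 0.236% of all genes were called (0.13% higher and 0.105% lower). At an unadjusted p under 0.05 stood 2 of the 7, beside 2.7% of all genes higher and 3.63% lower. It was 0.84 ± 0.33 for Trib3 (adjusted p = 0.612), 0.57 ± 0.25 for Atf4 (adjusted p = 0.719) and 0.27 ± 0.20 for Ddit3. The median over the 7 was 0.39, against -0.004 over all genes. Of the other lists Aldh1l2 was called (0.55 ± 0.11, adjusted p = 0.0229; 0.00549 to 0.586 over all settings run). It met the level filter only in the tumor, so that its organ effect on the log2(FPKM + 1) scale was held near 0, and no difference between tumor and organs is read from the call. The call was lost with a pseudocount of 0.1 (adjusted p = 0.586), on the TPM scale (0.224), without ICB tumor 3 (0.38, adjusted p = 0.200) and without IgG tumor 2 (0.51, adjusted p = 0.133). Its level was 9.86 FPKM in the ICB tumors and 6.46 FPKM in the IgG tumors, and its organ means lay between 0.0251 and 0.709 FPKM. The comparison within the tumor and this one share the tumor libraries.

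The genes most like each of the 7 were found by Pearson's r of log2(FPKM + 1) over the 36 libraries, which share tissue of origin, so that these values mostly describe tissue order. Atf4 was most like Vapa (r = 0.94, Spearman's rho 0.92) and Oser1 (0.90, 0.90), both highest in muscle and second in the tumor. Trib3 was most like Mapk6 (0.94, 0.85) and Ogfr (0.94, 0.84), and Ddit3 most like Jpt1 (0.90, 0.83) and Adprh (0.89, 0.87). Asns was most like Ppan (0.96, 0.87) and Nans (0.95, 0.89), all of them highest in the tumor. Chac1 was most like Eya4 (0.94, 0.59) and Drp2 (0.93, 0.64), both highest in muscle, with a rank agreement lower than for the other 6 genes. Sesn2 was most like Steap2 (0.94, 0.90) and Vill (0.93, 0.87), highest in kidney. Psat1 was most like Rps6ka6 (0.96, 0.86) and Inava (0.96, 0.81), highest in the tumor and second in kidney.

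The C/EBP-ATF core shown above in Asns and Chac1 was also counted for the other lists. At least 1 promoter with it was found for 3 of 9 synthetase-list genes with a RefSeq promoter (Aars, Gars and Tars), 4 of 9 effectors (Nupr1, Vldlr, Herpud1 and Fgf21, the last without a value used here), 2 of 11 synthesis genes (Pycr1 and Got1), 2 of 9 partner factors (Atf3 and Jdp2) and 1 of 7 transporters (Slc7a11). It was found for 0 of 12 genes of the ATF6 and XBP1 arm, 0 of 7 paralogs and 0 of 5 genes of the mitochondrial relay. The kinases and their target had it in 0 of 5 genes and the phosphatase subunits in 0 of 2. Over all genes with a promoter the share was 3.91%. Asns and Chac1, which both hold the core, differed in their tissue order, with Asns first in the tumor and Chac1 first in muscle.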

How the data were processed

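The deposited values are FPKM that the authors computed for each gene and library. The submitters' processing notes name HISAT2 2.1.0, mm10 and edgeR (no version). Which program counted reads, over which annotation and with which strand setting, was not stated in the labels. Per the labels' protocols, flash-frozen tissue was extracted with TRIzol and 1 ug of total RNA went into TruSeq libraries. Read numbers, recovered as whole for 18781 of 18781 rows (tolerance 0.001), set the depth. Left out were 15 unnamed rows and 3 symbols with 2 rows. FPKM scaling implied factors of 0.532 to 1.595.

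ICB and IgG were compared by limma 3.58.1 (R 4.3.3) on log2(FPKM + 1) in each tissue, two-sided, with a mean-variance trend, Benjamini-Hochberg adjustment and a threshold of 0.05. A gene needed FPKM of 1 or more in 3 or more of a tissue's 6 libraries. Tissues were compared in 1 fit of 36 libraries with 12 group means, over genes that met this in 1 tissue or more. The log2(FPKM + 1) scale understates changes of low genes. Replicate numbers follow accession order only. The procedure was checked on simulated data. The 7 genes, lists and tests were chosen with earlier results of these data known.

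Named were the 7 genes, each list's called genes (at most the 4 with the smallest p-values, otherwise the 2 smallest in the tumor), and 2 like genes for each of the 7, without predicted genes. Creld2, Hspa5, Aldh1l2, Dele1, Mars, the called marker genes and genes with a promoter match are named outside this rule, after their values were seen. Alternatives were a pseudocount of 0.1, other filters, median-of-ratios scaling, TPM scale, limma-voom on recovered reads, a joint fit, the title number as block, and leaving out libraries or organs. Added after the data were seen were the tumor against single organs in the ICB effect of Atf4, and counts of separated genes without each library. Promoters were searched with Python 3.11.15 and copies with blastn 2.17.0.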

Additional observations from a re-analysis of the deposited data

Results flagged for a closer look

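Atf4 had a higher mean with ICB in the tumor and a lower one in lung and muscle, and passed in no tissue. Its log2 difference in the tumor exceeded that in lung by 0.84 (SE 0.33, unadjusted p = 0.0159 and adjusted p = 0.681 in limma) and that in muscle by 0.87 (SE 0.33, unadjusted p = 0.0125, adjusted p = 0.361). It was flagged because every ICB tumor lay above every IgG tumor, while every ICB lung and every ICB muscle lay below every IgG library of its tissue. Neither difference passed over all genes tested, where 0.211% and 0.0992% of genes were called. Leaving out single libraries gave 0.74 to 0.98 against lung and 0.69 to 1.09 against muscle. These 2 comparisons were added after the data were seen. They use the libraries that prompted the flag, so their p-values are not separate support.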

How the results depend on the processing

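None of the 7 genes passed within a tissue under any alternative run, and each of their 7 tumor differences stayed above 0, while leaving out 1 library moved those of Trib3, Asns, Psat1 and Sesn2 by over 1.5 times (0.47 to 0.84, 0.14 to 0.44, 0.07 to 0.38 and 0.12 to 0.32 in that order). A joint fit of all 36 libraries called 72 genes for muscle, 68 for liver, 62 for tumor, 55 for lung and 4 for heart, against 0 in each, and 10 for kidney, against 2. Kidney had 1 call with no filter and 1 with limma-voom, and liver 1 with no filter. With the filter required in every tissue, 7048 genes were called between tumor and organs (13874 in the wider set), 24 on the organ average (70), 0 for the difference of ICB effects (38), and 49 of the members' pairwise tissue calls (86), where only 4 of the 7 genes were left to test. The organ average gave 252 calls on the TPM scale, 5 without lung, 1 without liver, 19 without muscle and 174 without heart, and the difference gave 18 with a pseudocount of 0.1 and, on the TPM scale, 15 higher and 27 lower against 21 and 17.

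Signs turned for small differences. On the TPM scale they were 0.010 for kidney Asns, 0.13 for lung Trib3, 0.089 for lung Ddit3, 0.15 for lung Asns, 0.12 for lung Sesn2 and 0.075 for heart Sesn2. Heart Chac1 was -0.012 with a pseudocount of 0.1 and -0.0021 with median-of-ratios scaling. Chac1 in tumor minus organs was -0.018 with median-of-ratios scaling, -0.38 without kidney, -0.12 without lung, -0.00496 without liver and -0.15 without heart. On the organ average Ddit3 was -0.045 without liver, Chac1 -0.034 without kidney and -0.023 without liver, and Psat1 -0.011 without lung. The cause was not tested.

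Leaving out 1 library gave 0 to 6 called genes in tumor, 1 to 9 in kidney, 0 to 42 in liver, 0 to 2 in heart, 31 to 296 on the organ average and 23 to 287 for the difference. Log2 differences that crossed 0 ranged in kidney from -0.14 to 0.018 for Asns, -0.22 to 0.27 for Atf4 and -0.044 to 0.44 for Psat1. In lung they ranged from -0.14 to 0.013 for Asns, -0.29 to 0.019 for Chac1, -0.24 to 0.079 for Sesn2 and -0.13 to 0.080 for Trib3. In liver they ranged from -0.42 to 0.88 for Asns, -0.42 to 0.012 for Atf4, -0.17 to 0.43 for Chac1, -0.295 to 0.042 for Sesn2 and -0.80 to 0.040 for Trib3. In muscle they ranged from -0.91 to 0.58 for Chac1, -0.049 to 0.22 for Ddit3, -0.54 to 0.48 for Sesn2 and -0.60 to 0.089 for Trib3. In heart they ranged from -0.011 to 0.22 for Atf4, -0.17 to 0.27 for Chac1, -0.10 to 0.10 for Ddit3, -0.205 to 0.029 for Psat1, -0.095 to 0.087 for Sesn2 and -0.17 to 0.054 for Trib3. On the organ average they ranged from -0.15 to 0.15 for Chac1 and -0.19 to 0.011 for Sesn2, and in tumor minus organs from -0.0093 to 0.13 for Chac1. Separated genes numbered 5 to 6 of 7 in the tumor, 7 to 8 of 13 synthetases there, and 8 to 12 of 15 of the ATF6 and XBP1 arm in both liver and heart, where fewer libraries also separate more of all genes.

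Libraries that share a title number in different tissues correlated over 0.1 in 40 of 56 pairs (median r 0.17), against 49 of 214 pairs with other numbers (median r -0.05). Not every pair did and no label calls the number an animal, so the block was not made part of the design, and these values are a hint that the numbers relate libraries. With the replicate block of title number 5 genes were called on the organ average, 48 for the difference and 13986 between tumor and organs, and Chac1 on the organ average was -0.0085. No paired analysis was possible because ICB and IgG libraries of a tissue share no title number. At 3 libraries an arm and 19005189 reads or more, genes under about 1 FPKM, such as kidney Trib3, were not tested.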
